A study of Mus musculus and synthetic construct with 33 samples.

Results

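Trp53cor1 encodes linc-p21, a long noncoding RNA transcribed from chromosome 17 next to Cdkn1a, the gene of the cell cycle inhibitor p21. The genes described here are its neighbours on both sides: genes of chromosome 17 whose transcription start lies within 1 Mb of the start of Trp53cor1 at position 29078961 (mm10), without Trp53cor1, Cdkn1a and Clps. They number 52 of 26754 genes listed. The window was set by position, while Trp53cor1, Cdkn1a and Clps were left out by name, and their results are given below. RNA came from 4 organs (heart, lung, liver and hindlimb) of E14.5 mouse embryos, either wild type (WT) or mutant (KO) for the allele Trp53cor1tm1.1Vlcg, all on a background the labels give as 129S6/C57BL/6 (N3, no Neo). Heart, hindlimb and lung had 3 WT and 3 KO libraries each, and liver had 5 WT and 4 KO libraries, 27 libraries of 17 embryos in all. WT and KO libraries had 3 litters in common in heart and 3 in liver, 2 in lung and 1 in hindlimb.

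The authors deposited 1 pooled value per gene and genotype in each organ, in FPKM (fragments per kilobase of transcript, scaled to library size), with a log2 fold change of KO over WT, a p-value and a q-value, which is the p-value adjusted over all genes tested in that organ. A gene is said to be called when its q-value is under 0.05. No spread between embryos accompanies any value, and the depth behind the values is unknown. The 4 organ tables were made separately, so levels of different organs are set side by side without a test. Fewer cells of a type and less RNA per cell cannot be told apart in such bulk samples.

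A long noncoding RNA gene can be tied to its neighbours in several ways. Its RNA can act on genes of the same chromosome, its promoter can compete with theirs, and its DNA can hold enhancers that serve them. Counts of neighbours that change when such a locus is altered are therefore a usual readout in this field, and they are given here against distance and strand. Srsf3, which encodes a splicing factor, is the nearest coding gene on the side of lower coordinates, called the lower side below. On the higher side, beyond Cdkn1a, Rab44 is the nearest coding gene. Trp53cor1 itself lies on the minus strand.

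The mutation was visible in the targeted gene. Trp53cor1 was at 0.852 FPKM in WT heart and 0.710 FPKM in WT hindlimb and at 0 in both KO tables (q = 0.0256 and q = 0.0123 in the authors' deposited table). In liver and lung it was too low to be tested, at 0.0351 and 0.104 FPKM in WT. Defining markers were present in each organ, with summed levels in WT of 16105 FPKM for 5 heart markers in heart and 380 FPKM for 5 limb markers in hindlimb, 21899 FPKM for 5 liver markers in liver and 781 FPKM for 5 lung markers in lung. Hindlimb markers included Tbx4 and Pitx1, and lung markers Nkx2-1 and Sftpc.

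Of the 52 neighbours, 40 are annotated as protein coding, 6 as lincRNA, 4 as antisense and 2 as processed transcript. The lower side held 31 of them and the higher side 21, and 31 lie on the plus strand and 21 on the minus strand. Starts within 100 kb numbered 6, those from 100 to 300 kb 14, and those from 300 kb to 1 Mb 32. The outermost members were Tcp11, a sperm gene, 998322 bases away on the lower side, and Zfand3, a zinc finger gene, 926126 bases away on the higher side. The next listed genes outside were the pseudogene 4930526A20Rik at 1002284 bases, with 0.451 FPKM in WT heart and 0.510 FPKM in KO heart, and Gm9874 at 1406550 bases, listed at 0 in both genotypes of heart.

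The region is a mixture of genes read in every organ and genes read in almost none, and their promoters differ in letters too. RefSeq promoter windows (build GRCm38.p6) with a start within 1000 bases of the start in the organ tables were found for 40 of the 52 genes, and the 250 bases before the RefSeq start were read. Shown here, because they span the range of levels and positions, are Srsf3 and Stk38 as the nearest coding genes of the lower side, Cpne5 as the nearest gene of the higher side with a matched window, Rpl10a as the gene with the highest level, Clpsl2, a colipase-like gene, as the 1 member listed at 0 in both genotypes of every organ, and Pi16 as the window with the fewest CG dinucleotides, which was chosen after its values were seen. Capitals mark CG dinucleotides, the sites at which DNA can be methylated and which are dense in CpG islands. All windows are 5′ to 3′ on the strand of the gene.
Srsf3 (chr17:29032410-29032659, plus strand): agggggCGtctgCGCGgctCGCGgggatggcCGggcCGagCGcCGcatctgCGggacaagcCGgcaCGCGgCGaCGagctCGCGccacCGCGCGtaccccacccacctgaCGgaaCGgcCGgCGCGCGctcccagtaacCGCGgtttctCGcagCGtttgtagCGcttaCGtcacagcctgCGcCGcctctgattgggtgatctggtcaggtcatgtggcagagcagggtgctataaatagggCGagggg
Stk38 (chr17:29007996-29008245, minus strand): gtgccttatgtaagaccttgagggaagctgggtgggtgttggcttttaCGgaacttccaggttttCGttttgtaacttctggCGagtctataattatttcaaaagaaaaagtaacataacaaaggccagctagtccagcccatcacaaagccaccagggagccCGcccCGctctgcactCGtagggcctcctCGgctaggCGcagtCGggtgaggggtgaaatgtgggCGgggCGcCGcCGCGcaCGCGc
Cpne5 (chr17:29237791-29238040, minus strand): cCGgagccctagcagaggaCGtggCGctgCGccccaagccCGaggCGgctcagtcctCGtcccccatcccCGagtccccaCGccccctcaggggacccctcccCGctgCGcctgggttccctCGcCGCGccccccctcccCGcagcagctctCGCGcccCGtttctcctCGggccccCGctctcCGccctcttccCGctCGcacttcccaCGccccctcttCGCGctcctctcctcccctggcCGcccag
Rpl10a (chr17:28328221-28328470, plus strand): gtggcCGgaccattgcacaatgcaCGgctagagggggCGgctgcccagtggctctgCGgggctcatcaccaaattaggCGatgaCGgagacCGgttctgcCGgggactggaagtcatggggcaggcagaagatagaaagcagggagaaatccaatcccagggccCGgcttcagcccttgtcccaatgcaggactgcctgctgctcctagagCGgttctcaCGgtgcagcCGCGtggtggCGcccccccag
Clpsl2 (chr17:28549237-28549486, plus strand): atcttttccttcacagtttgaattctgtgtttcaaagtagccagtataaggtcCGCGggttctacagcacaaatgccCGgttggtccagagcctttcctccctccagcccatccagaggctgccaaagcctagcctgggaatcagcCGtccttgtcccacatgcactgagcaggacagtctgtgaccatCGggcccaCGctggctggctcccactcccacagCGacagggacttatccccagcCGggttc
Pi16 (chr17:29318632-29318881, plus strand): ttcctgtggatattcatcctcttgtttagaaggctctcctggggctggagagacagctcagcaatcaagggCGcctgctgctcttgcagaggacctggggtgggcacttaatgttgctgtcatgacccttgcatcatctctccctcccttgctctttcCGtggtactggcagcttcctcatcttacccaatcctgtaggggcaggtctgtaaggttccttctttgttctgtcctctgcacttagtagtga

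The window of Srsf3 held 35 CG dinucleotides, that of Cpne5 27, Stk38 16, Rpl10a 14, Clpsl2 8 and Pi16 2. Over the 40 windows the median was 15, against 6 over all 32851 promoter windows of the RefSeq table. At least 10 CG dinucleotides were present in 26 of 40 windows (65%) and in 37.8% of all windows. The 40 are 1 window per matched gene, mostly coding, while all windows were taken without such a filter. The sets may thus differ in make-up, which holds for the motif shares below too. Of the 23 genes with a window and a level of 1 FPKM or more in WT in all 4 organs, 20 had at least 10 CG dinucleotides, with a median of 20. Of the 12 with a window that were below 1 FPKM in every WT organ, 4 had at least 10, with a median of 8. Single genes departed from this order in the plot of CG count against level. Lhfpl5, a hair cell gene with 24 CG dinucleotides, was at 0.00658 FPKM or less in WT, and BC004004 with 7 was at 25.6 to 36.9 FPKM in WT; both were singled out after their values were seen.

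The motif TATAAA, read on either strand, was found in 1 of the 40 windows, that of Srsf3, and in 12.4% of all windows. CCAAT was found in 18 windows (45%) against 33.8% of all, and GGGCGG in 23 (57.5%) against 32.7% of all. These are matches of letters in one window per gene and say nothing about the factors that read such motifs.

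**Figure D1:**
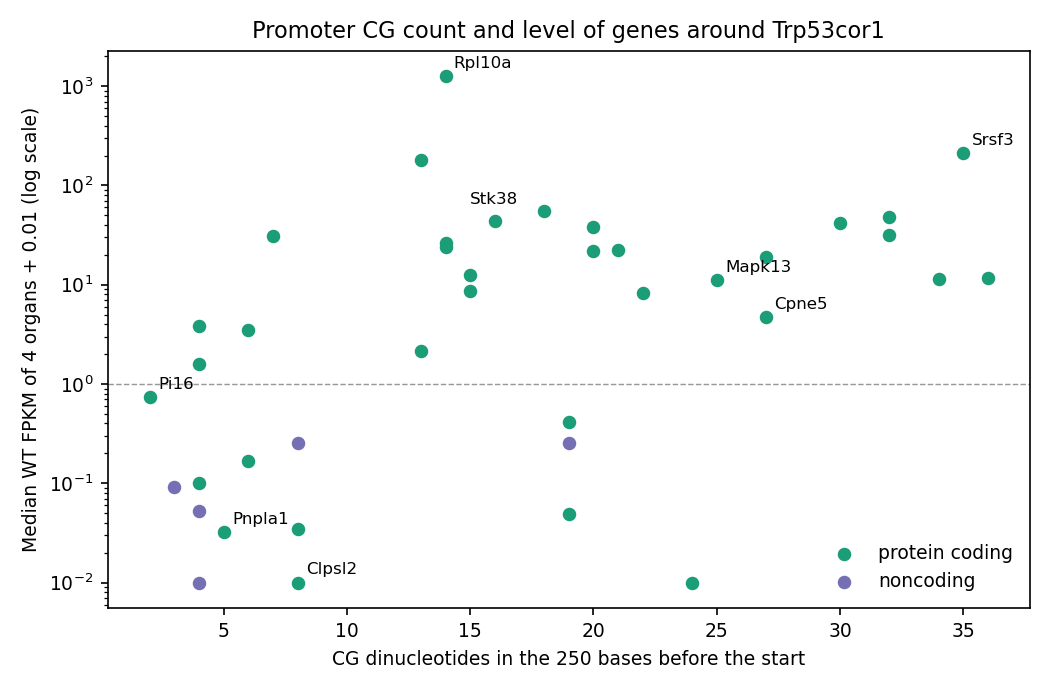
Number of CG dinucleotides in the 250 bases before the start (x axis) against the median WT level of the 4 organs, in FPKM + 0.01 on a log scale (y axis), for the 40 neighbours of Trp53cor1 with a RefSeq promoter window. Each point is 1 gene, green for protein coding and purple for noncoding, and the dashed line marks 1 FPKM; Srsf3 with 35 and Rpl10a with 14 CG dinucleotides have the highest levels of those labelled.

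Rpl10a, a protein of the large ribosomal subunit, was highest in all 4, at 750 FPKM in heart and 1136 in hindlimb, 1394 in liver and 1513 in lung. Srsf3 was at 150 FPKM in heart and 195 in hindlimb, 230 in liver and 421 in lung. Mtch1, a mitochondrial outer membrane protein, was at 179 FPKM in heart and 179 in hindlimb and 181 in lung and lower in liver, at 62.6 FPKM. These 3 genes stood above all other members in heart, hindlimb and lung, and in liver the third place was taken by Pim1.

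A level of 1 FPKM or more in WT was reached in all 4 organs by 25 genes, in 3 organs by 3, in 1 organ by 4 and in none by 20. Of the 25, 17 had a highest organ less than 3 times the lowest, with a median ratio of 2.02 over the 25. The steadiest included Cmtr1, an mRNA cap methyltransferase (23.8 to 29.3 FPKM), Rnf8, a ubiquitin ligase of the DNA damage response (18.9 to 24.9 FPKM), and Fance of the Fanconi anaemia pathway (18.5 to 25.9 FPKM). Per organ, 55.8% of neighbours were at 1 FPKM or more in WT heart and in WT hindlimb, 51.9% in liver and 53.8% in lung, against 48.7%, 51.5%, 46.2% and 49.5% of all genes listed.

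A smaller number of neighbours had 1 organ far above the others. Brpf3, a scaffold of a histone acetyltransferase complex, was at 79.5 FPKM in WT liver and between 10.7 and 11.9 FPKM in the other organs. Pim1, a cytokine-induced serine/threonine kinase of blood cells, was at 85.8 FPKM in WT liver and between 7.64 and 13.7 FPKM elsewhere. Rab44, a Rab GTPase known from blood cells, was at 4.80 FPKM in WT liver and at 0.566 FPKM or less elsewhere, and the neighbouring lincRNA Gm16194 was at 6.08 FPKM in liver and 0.741 FPKM or less elsewhere. The fetal liver is the main site of blood formation at this age. These 4 genes were grouped for their high liver level, and the part of blood cells in it was not tested.

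Other neighbours were uneven across organs too, some of them high in more than 1. Pnpla1, a lipid enzyme of the skin barrier, was at 1.98 FPKM in WT hindlimb and under 0.03 FPKM in the other organs. Scube3, a secreted signalling protein, was at 12.3 FPKM in WT hindlimb, 3.08 in lung, 1.15 in heart and 0.811 in liver. Mapk13, the p38 delta kinase, was at 23.1 FPKM in WT hindlimb and 20.4 in lung but at 1.48 in heart and 1.93 in liver, while Mapk14, the p38 alpha kinase, was at 26.5 to 49.4 FPKM in every organ. Tead3, a DNA-binding partner of YAP, was at 20.9 to 30.1 FPKM outside the liver and at 2.88 FPKM in it. Cpne5, a copine that binds phospholipid in the presence of calcium, was at 9.08 FPKM in WT heart, 6.21 in hindlimb, 3.23 in lung and 0.201 in liver.

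**Figure D2:**
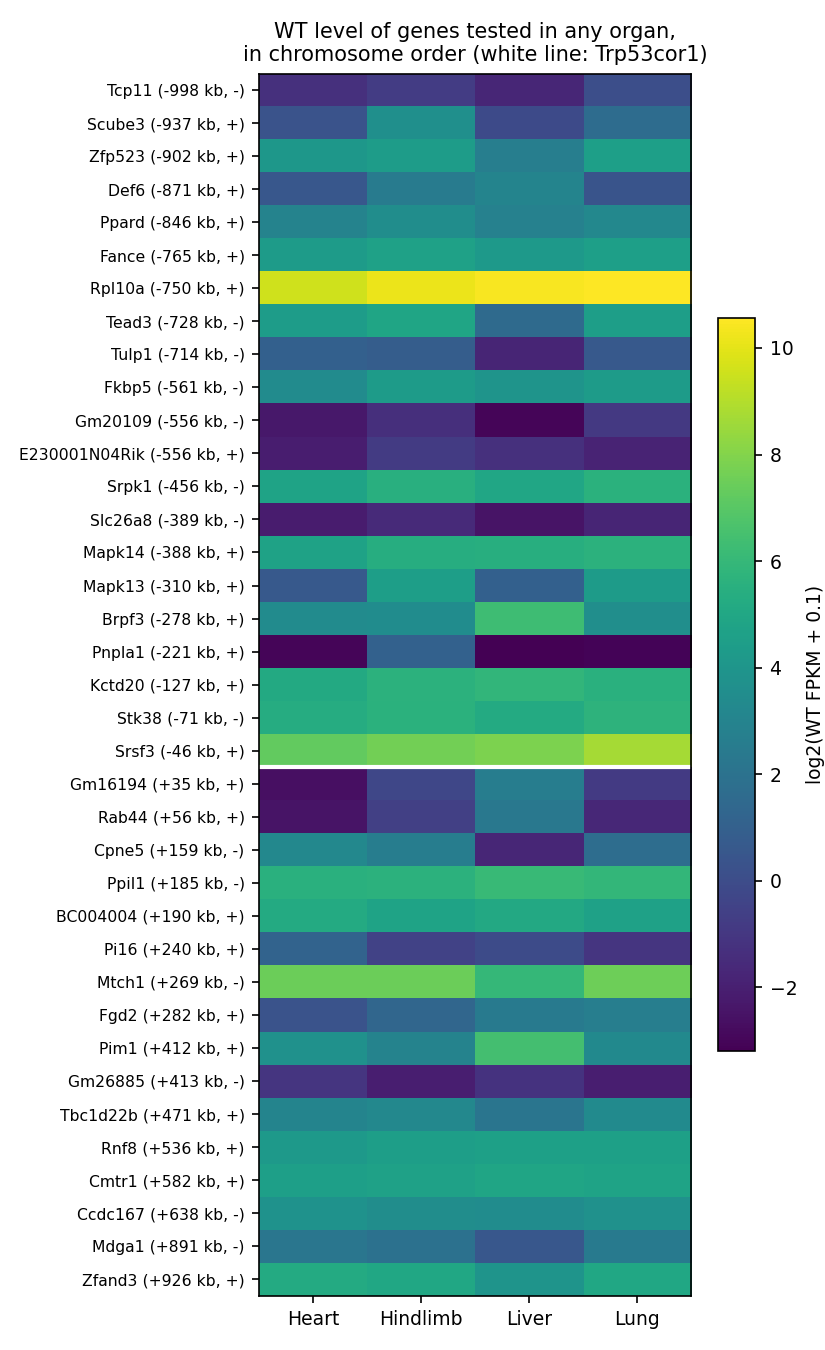
WT level as log2(FPKM + 0.1), by colour, of the 37 neighbours tested in at least 1 organ (rows, in chromosome order with distance from Trp53cor1 in kb and strand) in the 4 organs (columns). The white line is the position of Trp53cor1; Rpl10a and Srsf3 are bright throughout, and Brpf3, Pim1, Rab44 and Gm16194 are brightest in liver.

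The comparison of KO with WT asked whether the neighbours differ between the genotypes. On this mixed background the DNA around the targeted locus may also differ by strain between KO and WT. An effect of such a difference and one of the mutation cannot be told apart here. None of the 52 genes was called in any organ. The genes left out by name were called: Trp53cor1 in heart and hindlimb, Cdkn1a in all 4 organs and Clps in liver. Clps starts 518195 bases away on the lower side. In liver it was at 1.72 FPKM in WT and 6.96 FPKM in KO (q = 0.0140 in the authors' deposited table). The count of 0 thus holds for the members, and not for every gene of the window. By the authors' test and q-value the counts were 0 of 31 tested in heart (0.228% of all tested genes were called) and 0 of 36 in hindlimb (0.623%), while liver had 0 of 30 (0.406%) and lung 0 of 29 (0.707%). At a q-value under 0.10 the counts were also 0, against 0.254%, 0.974%, 0.476% and 0.857% of all tested genes. Against background shares this low, a count of 0 among 29 to 36 tested genes does not set the neighbours apart from other genes. A q-value above the threshold does not show that a gene was the same in both genotypes.

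Cdkn1a, which lies 12018 bases from the start of Trp53cor1 and is no member, gives the scale. Its KO level was 0.333 of WT in heart and 0.222 in hindlimb, 0.356 in liver and 0.444 in lung (q = 0.0256, 0.0123, 0.0140 and 0.00845 in the authors' deposited table). Among the tested neighbours only Gm26885 in heart and Cpne5 in lung had a KO level as low relative to WT as Cdkn1a in the same organ, and neither was called. Gm26885, a lincRNA that overlaps Pim1, was at 0.380 FPKM in WT heart and 0.0555 FPKM in KO heart (p = 0.131 in the authors' deposited table).

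The size of the changes was small for most neighbours. The median log2 fold change over tested neighbours was 0.03 in heart and 0.04 in hindlimb, -0.05 in liver and 0.01 in lung, beside -0.01, 0.01, -0.00296 and -0.000751 over all tested genes. Changes under 0.3 on the log2 scale, in either direction, made up 25 of 31 neighbours in heart and 27 of 36 in hindlimb, with 22 of 30 for liver and 25 of 29 for lung, or 80.6%, 75%, 73.3% and 86.2%, beside 83.2%, 80.3%, 88.5% and 85.3% of all tested genes. Of the 26 genes tested in all 4 organs, 18 stayed under 0.3 in every one. None of the 26 was higher in KO in all 4 organs and 1 was lower in all 4. That gene, Ppard, which encodes the nuclear receptor PPAR delta and was singled out after its values were seen, had log2 fold changes of -0.09 in heart and -0.03 in hindlimb, -0.23 in liver and -0.06 in lung in the authors' deposited table.

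Direction was uneven in hindlimb and liver. In hindlimb 25 of 36 tested neighbours (69.4%) were higher in KO, beside 52.5% of all tested genes, and in liver 9 of 30 (30%), beside 49.1%. In heart 17 of 31 (54.8%) and in lung 15 of 29 (51.7%) were higher, beside 47.0% and 49.8%. Neighbours share a stretch of chromosome and the same embryos, so the members are not independent and these shares carry no test. Cell type markers moved in these organs, and in heart and lung as well. In KO heart all 5 red cell markers were lower and 1 was called, at 5885 FPKM in WT and 3559 FPKM in KO in sum. In KO lung all 7 cardiac muscle markers were lower and 5 were called, at 896 and 55.4 FPKM in sum, with Nppa at 0 in KO. In KO hindlimb 4 of 5 red cell markers were higher and 2 were called, with a summed level of 596 FPKM in WT and 1116 FPKM in KO. All 5 markers of neutrophils and macrophages were lower there and 3 were called, at 40.4 and 24.7 FPKM in sum. In KO liver all 6 markers of the exocrine pancreas were higher and 2 were called, at 8.61 and 43.1 FPKM in sum, with Pnlip at 0 in WT. Their part in the direction of the neighbours was not tested.

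The sizes called elsewhere give a scale for these changes. Among tested genes with a mean of at least 10 FPKM in the pair of genotypes, the smallest called change on the log2 scale was 0.71 in heart and 0.47 in hindlimb, 0.50 in liver and 0.54 in lung. Neighbours at that level numbered 18, 21, 17 and 20, and 0 of them reached those sizes. Their largest changes were 0.32 for Ppil1 in heart and 0.32 for Srsf3 in hindlimb, -0.36 for Pim1 in liver and -0.23 for Rpl10a in lung, in the authors' deposited table. As these sizes are the smallest called, it follows that no gene at this level with a smaller change was called, neighbour or not.

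**Figure D3:**
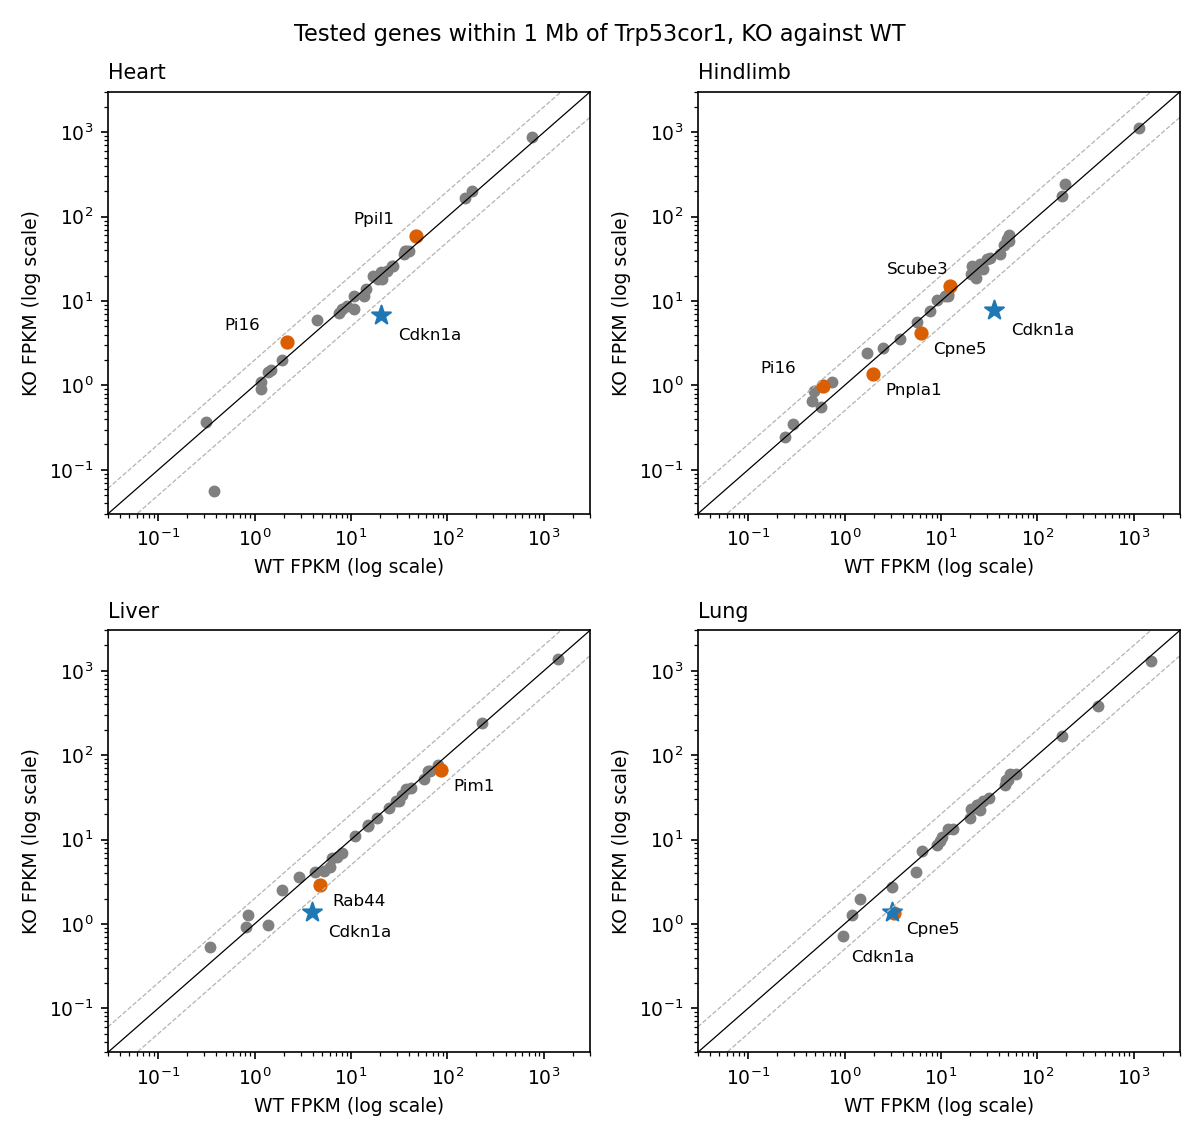
KO level against WT level in FPKM, both on log scales, of the tested neighbours in each organ, with a solid line at equality and dashed lines at a 2-fold difference. Each point is 1 gene; orange marks an unadjusted p under 0.05 and the blue star is Cdkn1a, which lies below the lower dashed line in all 4 organs and covers the point of Cpne5 in lung.

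An unadjusted p-value under 0.05 was found for 7 neighbours, in 9 of the 126 tests over the 4 organs. The counts were 2 of 31 in heart (6.45%, beside 2.95% of all tested genes) and 4 of 36 in hindlimb (11.1%, beside 5.97%), while liver had 2 of 30 (6.67%, beside 2.79%) and lung 1 of 29 (3.45%, beside 4.68%). The counts rest on 1 to 4 genes per organ. The 7 genes are described next, from the nearest outward, as candidates that did not pass the adjusted test.

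Rab44 starts 56095 bases away on the higher side (ENSMUSG00000064147.6; 29135056 to 29148980, plus strand). In liver it was at 4.80 FPKM in WT and 2.86 FPKM in KO, a log2 fold change of -0.75 (p = 0.00645, q = 0.561 in the authors' deposited table). In hindlimb, the other organ in which it was tested, it was at 0.566 and 0.549 FPKM. Markers of neutrophils and macrophages in the same livers were lower in KO for 2 of 5 and higher for 3 of 5, summing to 1133 FPKM in WT and 1210 FPKM in KO, with none called and none at 0. Markers of red cells summed to 17650 FPKM in WT and 20530 FPKM in KO, with 2 of 5 lower, none called and none at 0.

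Cpne5 starts 158836 bases away on the higher side (ENSMUSG00000024008.9; 29156550 to 29237797, minus strand) and was the 1 gene with such a p-value in both hindlimb and lung. In lung it was at 3.23 FPKM in WT and 1.35 FPKM in KO, a log2 fold change of -1.26 (p = 0.00145, q = 0.149 in the authors' deposited table). In hindlimb it was at 6.21 and 4.20 FPKM, a log2 fold change of -0.56 (p = 0.0437, q = 0.784 in the authors' deposited table). Its WT level was highest in heart, where it was at 9.08 and 8.67 FPKM (p = 0.793 in the authors' deposited table).

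Muscle markers moved with Cpne5 in both organs. In lung all 7 cardiac muscle markers were lower in KO and 5 were called, with a summed level of 896 FPKM in WT and 55.4 FPKM in KO, and Nppa was listed at 0 in KO. In hindlimb all 5 skeletal muscle markers were lower in KO and 2 were called, with a summed level of 1168 FPKM in WT and 773 FPKM in KO and none at 0. Their part in the values of Cpne5 was not tested.

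Ppil1, a cyclophilin of the spliceosome, starts 185197 bases away on the higher side (ENSMUSG00000024007.8; 29250803 to 29264158, minus strand). It was at 47.2 FPKM in WT heart and 58.8 FPKM in KO heart, a log2 fold change of 0.32 (p = 0.0298, q = 0.99995 in the authors' deposited table). In hindlimb it was at 50.7 and 59.8 FPKM (p = 0.0686 in the authors' deposited table). In liver, at 66.4 and 64.2 FPKM, and in lung, at 59.8 and 60.3 FPKM, the genotypes lay closer together.

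Pnpla1 starts 220550 bases away on the lower side (ENSMUSG00000043286.5; 28858411 to 28890308, plus strand). It was tested in hindlimb alone, at 1.98 FPKM in WT and 1.37 FPKM in KO, a log2 fold change of -0.54 (p = 0.0258, q = 0.624 in the authors' deposited table). All 4 epidermal keratin markers were lower in the same KO limbs and 1 was called, with a summed level of 840 FPKM in WT and 656 FPKM in KO and none at 0. Their part in the value of Pnpla1 was not tested.

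Pi16, a secreted peptidase inhibitor found in heart and fibroblasts, starts 239916 bases away on the higher side (ENSMUSG00000024011.10; 29318877 to 29329413, plus strand). It was at 2.18 FPKM in WT heart and 3.24 FPKM in KO heart, a log2 fold change of 0.57 (p = 0.0333, q = 0.99995 in the authors' deposited table). In hindlimb it was at 0.602 and 0.986 FPKM, a log2 fold change of 0.71 (p = 0.0442, q = 0.786 in the authors' deposited table). In liver it was at 0.849 and 1.29 FPKM, a log2 fold change of 0.60 (p = 0.0877 in the authors' deposited table).

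Pi16 was thus higher in KO in each of the 3 organs that tested it, and in lung it was at 0.375 and 0.438 FPKM without a test. Heart and liver came from 5 shared embryos, and heart and hindlimb from 1 shared embryo, so the 3 values are not independent. In liver all 3 smooth muscle markers were called higher in KO, with a summed level of 14.2 FPKM in WT and 24.3 FPKM in KO, while in heart all 3 were lower, at 810 and 801 FPKM, and in hindlimb all 3 were lower, at 153 and 128 FPKM, with none called in either and none at 0 in any of these organs. Their part in the values of Pi16 was not tested.

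Pim1 starts 411851 bases away on the higher side (ENSMUSG00000024014.6; 29490812 to 29495445, plus strand). In liver it was at 85.8 FPKM in WT and 66.9 FPKM in KO, a log2 fold change of -0.36 (p = 0.00525, q = 0.517 in the authors' deposited table). In WT and KO heart it was at 13.7 and 11.3 FPKM, a log2 fold change of -0.27 (p = 0.0966 in the authors' deposited table), and in hindlimb it was at 7.64 FPKM in both genotypes. The blood cell markers of these livers are given beside Rab44.

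Scube3 starts 936645 bases away on the lower side (ENSMUSG00000038677.7; 28142316 to 28174852, plus strand), close to the edge of the window. In hindlimb it was at 12.3 FPKM in WT and 14.96 FPKM in KO, a log2 fold change of 0.28 (p = 0.0464, q = 0.811 in the authors' deposited table). In WT and KO heart it was at 1.15 and 0.904 FPKM and in lung at 3.08 and 2.76 FPKM, lower in KO in both, with p-values of 0.191 and 0.391 in the authors' deposited table. In liver it was higher in KO, at 0.811 and 0.912 FPKM, a log2 fold change of 0.17 (p = 0.553 in the authors' deposited table).

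**Figure D4:**
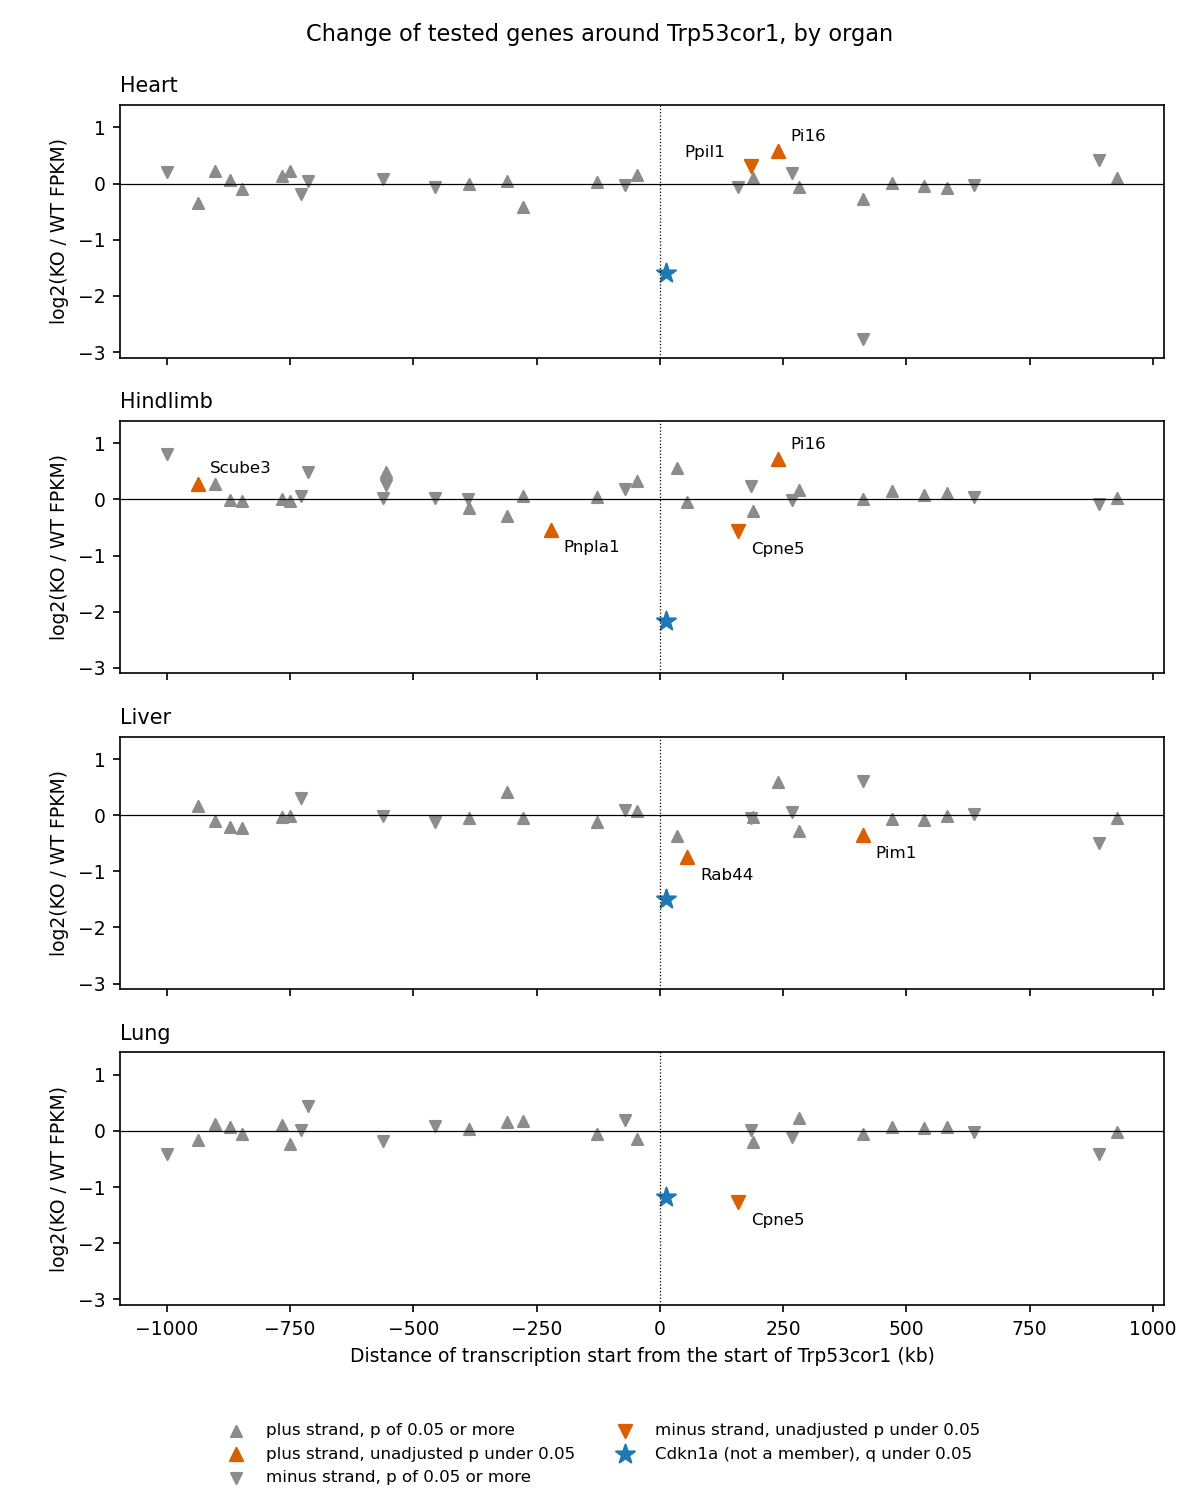
Log2 fold change of KO over WT (y axis) against the distance of the transcription start from that of Trp53cor1 in kb (x axis) for the tested neighbours in each organ. Triangles point up for plus strand and down for minus strand genes, orange marks an unadjusted p under 0.05 and the blue star is Cdkn1a; most neighbours lie close to 0, with Gm26885 in heart (-2.78) and Cpne5 in lung (-1.26) farthest below.

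Of the 6 genes within 100 kb of Trp53cor1, Srsf3 and Stk38 were tested in all 4 organs, Gm16194 and Rab44 in hindlimb and liver, and the lincRNAs Gm16195 and Gm16196 in none. Srsf3, 46288 bases away on the lower side, was at 167 FPKM in KO heart, 244 in KO hindlimb, 244 in KO liver and 383 in KO lung, with log2 fold changes of 0.15, 0.32, 0.08 and -0.14 in the authors' deposited table. Its lowest p-value was 0.0777, in hindlimb, in the authors' deposited table. Stk38, an NDR family kinase 71016 bases away, had log2 fold changes of -0.02, 0.19, 0.10 and 0.20, and Kctd20, a BTB domain protein 127011 bases away, of 0.03, 0.05, -0.12 and -0.06 in heart, hindlimb, liver and lung in the authors' deposited table. Gm16194, 35184 bases away on the higher side, was tested in hindlimb (0.741 and 1.09 FPKM) and liver (6.08 and 4.73 FPKM), with p-values of 0.279 and 0.410 in the authors' deposited table. In lung it was not tested, with 0.458 FPKM in WT against a KO value of 0. Rab44, described above, had the lowest KO level relative to WT among the tests within 100 kb, 0.597 in liver. Gm16195 and Gm16196 were at 0.230 FPKM or less in both genotypes of every organ.

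By distance, no member was called in any band. Cdkn1a, within 100 kb, was called in all 4 organs and Clps, between 300 kb and 1 Mb, in liver, but neither is a member. The sizes of the changes were larger near Trp53cor1 in some organs. Tested neighbours within 100 kb numbered 2 in heart and 4 in hindlimb, 4 in liver and 2 in lung, with median log2 fold changes of 0.06, 0.26, -0.14 and 0.03. From 100 to 300 kb the medians were 0.06 over 8 genes, 0.05 over 9, -0.05 over 7 and -0.06 over 7, and from 300 kb to 1 Mb they were 0.02 over 21 genes, 0.03 over 23, -0.05 over 19 and 0.03 over 20. Without regard to direction, the median size was 0.09 in heart and 0.26 in hindlimb within 100 kb, 0.23 in liver and 0.17 in lung. It was 0.14, 0.20, 0.06 and 0.17 from 100 to 300 kb and 0.09, 0.08, 0.10 and 0.08 beyond. The medians of the nearest band rest on 2 to 4 genes.

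Over the 4 organs, an unadjusted p under 0.05 was found in 1 of 12 tests within 100 kb (8.33%), in 6 of 31 from 100 to 300 kb (19.4%) and in 2 of 83 beyond (2.41%), beside 4.15% of the tests of all genes. The 6 tests belong to 4 genes, Cpne5, Pi16, Ppil1 and Pnpla1, and organs share embryos, so they are not independent. Across genes, the Pearson correlation of the signed log2 fold change with unsigned distance was 0.06 in heart (n = 31) and 0.17 in hindlimb (n = 36), -0.01 in liver (n = 30) and 0.04 in lung (n = 29), and Spearman's rho was 0.07, 0.08, 0.00200 and -0.10. For the size of the change without its sign, Pearson's r was -0.04, -0.13, -0.18 and -0.11 and Spearman's rho was 0.18, -0.23, -0.18 and -0.04 in the same order. These genes share libraries and a stretch of chromosome, so the coefficients are descriptions.

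Side and strand gave medians close to 0 as well. On the lower side the median log2 fold change was 0.04 in heart and 0.05 in hindlimb, -0.04 in liver and 0.03 in lung, and on the higher side -0.000188, 0.04, -0.05 and -0.02. Plus strand neighbours had medians of 0.03, 0.05, -0.05 and 0.04, and minus strand neighbours of 0.01, 0.04, 0.02 and -0.01. In liver 17 of 21 tested plus strand genes and 4 of 9 minus strand genes were lower in KO. Over all tested genes with a fold change in liver, 7261 of 14272 were lower. Over the 4 organs, 7 of 56 tests on the higher side (12.5%) and 2 of 70 on the lower side (2.86%) had an unadjusted p under 0.05. The share over the tests of all genes was 4.15%. Cpne5 and Pi16 each enter more than once on the higher side, and organs share embryos, so the tests are not independent.

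By role, the 5 kinases (Mapk14, Mapk13, Srpk1, Stk38 and Pim1) were tested in every organ with 0 called and medians of -0.02 in heart and 0.00120 in hindlimb, -0.05 in liver and 0.10 in lung. Mapk13 had the largest log2 fold change among them, 0.40 in liver at 1.93 and 2.55 FPKM (p = 0.167 in the authors' deposited table). In hindlimb, where it was more abundant, it was at 23.1 and 18.8 FPKM (p = 0.0629 in the authors' deposited table). The 4 genes of RNA processing and translation (Srsf3, Ppil1, Cmtr1 and Rpl10a) had 0 called and medians of 0.18, 0.17, -0.02 and -0.06. Rpl10a was at 873 FPKM in KO heart, 1108 in KO hindlimb, 1383 in KO liver and 1290 in KO lung.

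The 5 genes of transcription and chromatin (Ppard, Tead3, Zfp523, Brpf3 and Zfand3) had 0 called and medians of -0.09, 0.06, -0.05 and 0.02. Brpf3 was at 10.7 FPKM in WT heart and 7.98 FPKM in KO heart (log2 fold change -0.42, p = 0.0707 in the authors' deposited table), and at 79.5 and 77.0 FPKM in liver. The 3 genes listed under DNA repair and ubiquitin (Fance, Rnf8 and Kctd20) stayed between -0.12 and 0.13 in all organs. Fkbp5, a co-chaperone of the glucocorticoid receptor and a gene that glucocorticoids induce, lay between -0.18 and 0.08.

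The 9 genes of signalling and membrane (Def6, Fgd2, Cpne5, Rab44, Tbc1d22b, Mtch1, Scube3, Mdga1 and Pi16) had 0 calls, and an unadjusted p under 0.05 in 6 of their 32 tests (18.8%), beside 4.15% of the tests of all genes. Cpne5 and Pi16 account for 4 of the 6. Mdga1, a membrane-anchored protein of neurons, was at 4.46 and 5.98 FPKM in WT and KO heart and at 5.48 and 4.13 FPKM in lung, with log2 fold changes of 0.42 and -0.41 (p = 0.198 and 0.199 in the authors' deposited table). In liver Mdga1 had a log2 fold change of -0.50 and in hindlimb of -0.09 (p = 0.309 and 0.772 in the authors' deposited table). Fgd2, an exchange factor for Cdc42, was at 5.20 and 4.28 FPKM in liver and 6.31 and 7.38 FPKM in lung.

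The 10 genes listed as restricted to few tissues were mostly near 0, with 3 tested in heart and 5 in hindlimb, 1 in liver and 3 in lung, and 0 called. Ccdc167 goes against that name, at 11.0 to 14.2 FPKM in WT in every organ. Tulp1, known from photoreceptors, was at 1.71 and 2.41 FPKM in hindlimb and at 1.44 and 1.96 FPKM in lung, with log2 fold changes of 0.49 and 0.44 (p = 0.234 and 0.215 in the authors' deposited table). In heart Tulp1 was at 1.94 and 2.00 FPKM, a log2 fold change of 0.04 (p = 0.913 in the authors' deposited table). Tcp11 was at 0.488 and 0.852 FPKM in hindlimb, the largest log2 fold change of a tested neighbour there at 0.81 (p = 0.107 in the authors' deposited table). Its log2 fold change was 0.22 in heart and -0.42 in lung (p = 0.785 and 0.302 in the authors' deposited table).

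The 12 noncoding genes were low, and Gm16194 in liver was the only one at 1 FPKM or more in a WT organ. Tests were made for 4 of them, Gm16194, Gm26885, Gm20109 and E230001N04Rik, with 0 called. In all, 15 of the 52 neighbours were tested in no organ, among them 7 coding genes such as Armc12, Lhfpl5, Pxt1 and Clpsl2, and no statement on their change can be made.

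Exons of 6 pairs of neighbours overlap on opposite strands, and the sources used here do not say whether counting used strand, so reads of such a pair may not be told apart. The overlaps were 1956 bases for Ccdc167 and Cmtr1, 644 for Pnpla1 and its antisense gene Gm16190, and 468 for Pim1 and Gm26885, with the other 3 at 248 bases or fewer. Tbc1d22b, a GTPase-activating protein, and Tmem217 start 195 bases apart in opposite directions, yet they were at 4.27 to 10.3 FPKM and at 0.0591 FPKM or less in WT. Mapk14 and Slc26a8, a sperm anion transporter, start 1355 bases apart and were at 26.5 to 49.4 FPKM and at 0.242 FPKM or less in WT.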

How the data were processed

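RNA sequencing tables of 4 organs were used. Reads were processed with CASAVA 1.8.2 and TopHat2 on mm10, per the submitters' processing notes, and the sources used here do not name the program behind the values. The authors deposited 1 FPKM value per gene and genotype, pooled over libraries, per the file headers. The deposited log2 fold change, the test statistic (a score, not used here), the p-value and the q-value come from the authors' test, per the file headers. Values under 1e-05 FPKM were read as 0, and no fold change is given where a genotype is at 0. Values per library and depth are not given in these tables, so no SD, interval or test over embryos was computed.

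Genes were reduced to 1 row per gene identifier, with the start taken as the outermost exon end over all listed transcripts. Members and lists were chosen with earlier results of these data known. The named genes are those with an unadjusted p under 0.05, the 4 nearest tested on each side, and the 3 highest per organ. Named too are the 2 largest rises and falls (1 FPKM or more) per organ. So are those listed at 0 in 1 genotype and at 0.3 FPKM or more in the other. Any with a q-value under 0.05 and up to 4 of each role list complete them. Exceptions chosen after their values were seen are BC004004, Gm26885 and, within the lists, members named beyond 4. Window selection and medians were tested on simulated data. Python 3.11.15, pandas 2.3.3 and scipy 1.17.1 were used. The reporter assay of the series was not used.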

Additional observations from a re-analysis of the deposited data

How the results depend on the processing

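No paired analysis was possible because each organ table holds 1 pooled value per genotype; for the same reason libraries could not be left out in turn. Calls were 0 in every organ also with a q-value under 0.10, with a window of 500 kb and with 1 FPKM or more in either genotype. Trp53cor1, Cdkn1a and Clps stayed left out of every window. With an unadjusted p-value under 0.05 the counts were 2 in heart and 4 in hindlimb, 2 in liver and 1 in lung. With a window of 2 Mb the called counts were 2 of 51 tested in heart and 2 of 57 in hindlimb, then 2 of 48 in liver and 3 of 48 in lung (3.92%, 3.51%, 4.17% and 6.25%, beside 0.228%, 0.623%, 0.406% and 0.707% of all tested genes): Glo1 in all 4 organs, Dnah8 in heart, hindlimb and lung, and Hmga1 in liver and lung, all more than 1 Mb away. The 4 organ medians moved by at most 0.03 on the log2 scale over their alternatives (filter, pseudocounts of 0.1 and 1, centring, windows), and the 16 medians by side and strand by at most 0.02; of these, the heart median of the higher side went from -0.000188 to 0.02 and the liver median of the minus strand from 0.02 to -0.00234 and so crossed 0. A pseudocount of 1, an alternative chosen after seeing the data, brought Cpne5 in lung to -0.85, Rab44 in liver to -0.59, Pnpla1 in hindlimb to -0.33, and Pi16 to 0.42 in heart and 0.31 in hindlimb. Depth is unknown and the genes near 0 cannot be judged.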
